A study of Mus musculus with 24 samples.

Results

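The 10 genes described here act on coenzyme A (CoA) after the pantothenate kinase step, and were taken by name as 10 of the 50686 gene rows in each count table. They are the 3 later enzymes of synthesis (Ppcs, Ppcdc, Coasy), 2 transporters (Slc5a6, Slc25a42), 4 hydrolases that can cut CoA or its precursors (Nudt7, Nudt8, Nudt19, Enpp1) and the transferase Aasdhppt. Of the 10, 9 passed the filter on low counts and were tested, and Nudt8 was not. Messenger RNA was sequenced from tissue labelled as back left brain of C57BL/6 mice, in a study whose title names pantothenate kinase-associated neurodegeneration and whose design compares knockouts with controls in each sex at days 10 and 20. The knockout mice were Pank1-/- Syn-Pank2-/- double knockouts, called dKO here, and wild-type mice (WT) served as controls. The labels do not explain Syn, and they name neither the cells that lost Pank2 nor the exons taken out of either gene. Females and males of each genotype at day 10 and at day 20 made 8 groups of 3 libraries, 24 in all. The labels do not say whether the 3 libraries of a group came from separate animals, so the p-values measure the spread between these libraries, which may be technical.

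CoA carries acyl groups in fatty acid, amino acid and energy metabolism, and every cell makes it from pantothenate (vitamin B5). Pantothenate kinase adds a phosphate in the step that controls the rate, PPCS then joins cysteine, PPCDC removes a carboxyl group to leave phosphopantetheine, and COASY adds the adenylate and the last phosphate. Nudix hydrolases in peroxisomes and mitochondria cut CoA back to phosphopantetheine, ENPP1 can do so outside the cell, and AASDHPPT spends CoA by moving its phosphopantetheine onto carrier proteins. Inherited loss of PANK2 or COASY in people causes neurodegeneration with iron accumulation in the brain.

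Of the 24 libraries, 23 held 9.19 to 44.7 M gene counts (M, mega, as in CPM, counts per 1 M). On the scale of the levels given here, CPM with TMM factors, 1 count stood for 0.0217 to 0.103 CPM. With 45964 gene counts, dKO male day 10 replicate 3 was left out, which leaves 2 libraries in that group. The calls at day 10 depended strongly on single libraries, in that group and in others. Over all genes, 843 were called higher and 414 lower in dKO at day 10. The counts were 44 and 22 without WT male day 10 replicate 1, and 1546 and 1028 without WT male day 10 replicate 3. Without dKO female day 10 replicate 1 they were 1290 and 914. Leaving out either dKO male of day 10 leaves 1 library in that group, and the counts then moved further. The targeted genes were looked at first. Pank1 RNA was 36.2% of WT at day 10 and 33.2% at day 20, with every dKO library below every WT library at both days. Pank2 RNA was 93.8% of WT at day 10, which was not called (adjusted p = 0.314), and fell to 74.2% of WT by day 20 (adjusted p = 1.23e-06). Xist and Y-linked genes matched the labelled sex in all 23 libraries. The summed level of 10 neuronal markers was 4638 to 4775 CPM in WT and 4068 to 4619 CPM in dKO at day 20, and no marker of the neuronal, astrocyte or oligodendrocyte lists was at 0 throughout.

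Levels of the 10 genes in WT tissue were compared per length, as CPM per kilobase of exon (mean ± SD, n = 6). At day 10 Aasdhppt stood at 13.8 ± 0.462 CPM per kilobase and Nudt19 at 12 ± 0.952, and their libraries overlapped. Coasy followed at 8.02 ± 0.337, Slc5a6 at 4.68 ± 0.200, Ppcs at 3.43 ± 0.198 and Slc25a42 at 2.60 ± 0.209 CPM per kilobase. Below them lay Ppcdc at 2.12 ± 0.121, Enpp1 at 1.13 ± 0.114, Nudt7 at 0.780 ± 0.116 and Nudt8 at 0.158 ± 0.101 CPM per kilobase. Apart from Aasdhppt and Nudt19, neighbours in this order did not overlap between libraries at day 10. Of the 4 hydrolases, Enpp1, Nudt7 and Nudt8 held the lowest places and Nudt19 lay above the enzymes of synthesis. At day 20 Slc25a42 (3.66 ± 0.455 CPM per kilobase) stood above Ppcs (3.27 ± 0.404), with libraries that overlapped, and so did Enpp1 (1.32 ± 0.117) and Nudt7 (1.17 ± 0.274). Aasdhppt at 14.4 ± 0.622, Nudt19 at 9.75 ± 0.679, Coasy at 7.27 ± 0.351, Slc5a6 at 5.18 ± 0.330, Ppcdc at 2.39 ± 0.118 and Nudt8 at 0.233 ± 0.100 CPM per kilobase stood in the same order as at day 10.

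**Figure D1:**
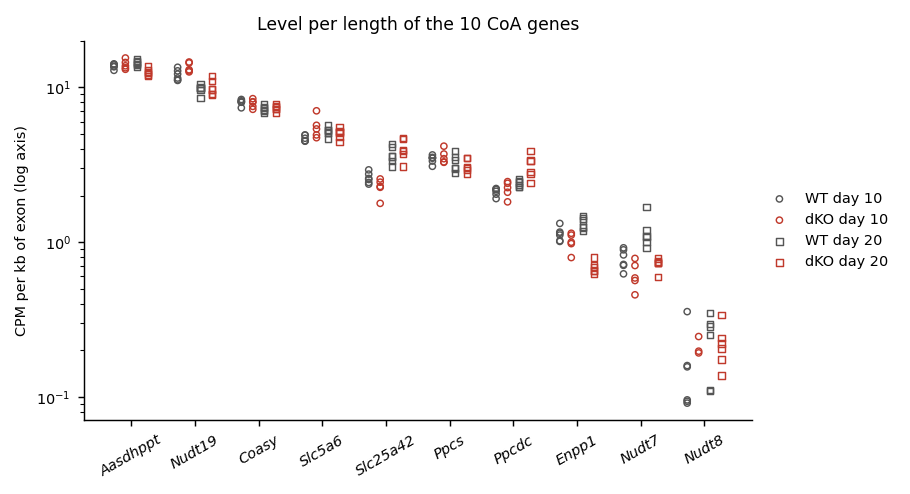
Level of each of the 10 genes as CPM per kilobase of exon on a log axis, with 1 point per library for WT and dKO at day 10 (circles) and day 20 (squares); 2 dKO libraries at day 10 in which Nudt8 was 0 are not drawn. In WT at day 20 the means run from 14.4 for Aasdhppt to 0.233 for Nudt8.

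The main question was whether the pathway beyond pantothenate kinase differed between genotypes. At day 20, 4 of the 9 tested genes passed the threshold (edgeR quasi-likelihood test, adjusted p under 0.05 by Benjamini-Hochberg over 21657 genes), 1 higher and 3 lower in dKO. Enpp1 fell by 0.95 on the log2 scale, Nudt7 fell by 0.67 and Aasdhppt fell by 0.19, while Ppcdc rose by 0.36. The test called 38.8% of all genes tested at day 20 (19.4% in the higher and 19.5% in the lower direction), so a count of 4 of 9 (44.4%) lay near the background. The median log2 change was -0.03 over the 9 genes and 0.00 over all tested genes. Ppcs, Coasy, Slc5a6, Slc25a42 and Nudt19 were not called. At day 10, 0 of 9 were called by edgeR and by limma-voom and 1 (Slc5a6) by DESeq2, and edgeR called 5.80% of all tested genes. An unadjusted edgeR p under 0.05 was found for 3 of 9 members and for 5467 of the 21657 genes.

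**Figure D2:**
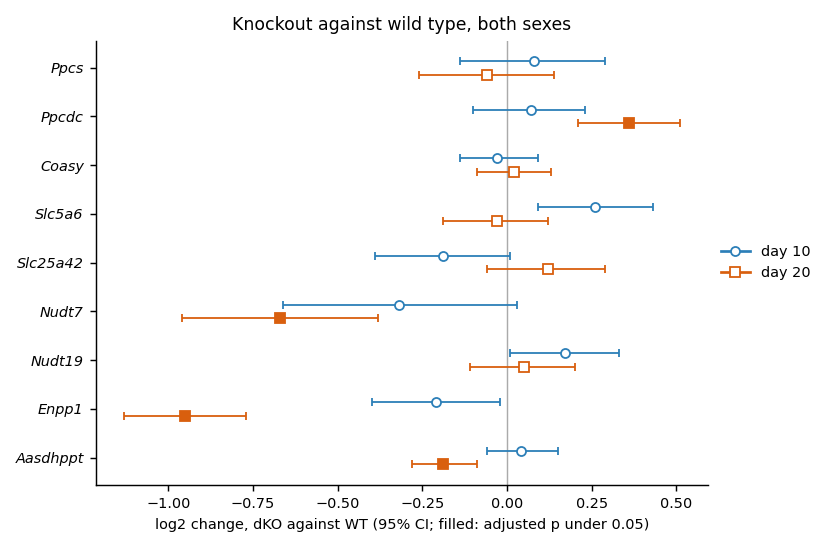
Log2 change in dKO against WT for the 9 tested genes at day 10 and day 20, both sexes together, with 95% confidence intervals; filled symbols have an adjusted p under 0.05. At day 20 Enpp1 (-0.95), Nudt7 (-0.67) and Aasdhppt (-0.19) lie below 0 and Ppcdc (0.36) above, and at day 10 no symbol is filled.

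The sequences before a RefSeq start of each of these 4 genes are shown so that the letters near that start can be read beside the gene's change. They come from RefSeq (GRCm38.p6) and run 5′ to 3′ on the strand of the gene, over the 250 bases before the start; for Nudt7 the last bases, which lie in an exon of another transcript of the gene, are left off. The Nudt7 stretch belongs to the second of its 2 RefSeq starts. The Ppcdc window precedes its RefSeq start but lies inside the GENCODE span of the gene (57385095 to 57440124). It is therefore not the sequence before the outermost annotated start of Ppcdc. Capitals mark matches, on either strand, to a GC box (GGGCGG) or a CCAAT box (CCAAT).
Enpp1, chr10:24712160-24712409, minus strand: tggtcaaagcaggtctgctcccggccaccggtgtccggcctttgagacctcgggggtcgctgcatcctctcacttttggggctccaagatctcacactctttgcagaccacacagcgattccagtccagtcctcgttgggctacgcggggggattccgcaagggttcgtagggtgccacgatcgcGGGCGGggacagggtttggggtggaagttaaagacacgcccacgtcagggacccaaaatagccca
Nudt7, chr8:114133324-114133556, plus strand: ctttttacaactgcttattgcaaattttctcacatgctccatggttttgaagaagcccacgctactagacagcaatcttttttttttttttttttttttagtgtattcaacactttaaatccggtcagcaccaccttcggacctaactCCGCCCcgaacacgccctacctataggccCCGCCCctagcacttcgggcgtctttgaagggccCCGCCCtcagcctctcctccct
Aasdhppt, chr9:4309495-4309744, minus strand: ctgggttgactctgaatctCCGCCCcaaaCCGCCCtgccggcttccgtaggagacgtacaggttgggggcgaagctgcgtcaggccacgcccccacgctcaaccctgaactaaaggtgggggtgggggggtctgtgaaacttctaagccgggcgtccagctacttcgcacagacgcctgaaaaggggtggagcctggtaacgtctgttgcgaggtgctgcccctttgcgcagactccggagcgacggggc
Ppcdc, chr9:57439737-57439986, minus strand: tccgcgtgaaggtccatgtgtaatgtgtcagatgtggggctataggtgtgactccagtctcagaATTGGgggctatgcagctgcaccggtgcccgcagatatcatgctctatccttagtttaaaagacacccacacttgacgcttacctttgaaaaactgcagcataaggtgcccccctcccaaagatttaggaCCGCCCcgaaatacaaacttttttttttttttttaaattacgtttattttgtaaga
The Enpp1 window held 1 GC box, the printed Nudt7 stretch 3, the Aasdhppt window 2, and the Ppcdc window 1 GC box and 1 CCAAT box. A GC box is in 32.7% of the 32817 windows of 250 bases in the table and a CCAAT box in 33.8%. Of 6 other motifs searched on both strands, an E-box (CACGTG, 6.02% of windows), an NRF1 site (3.73%), a PPAR direct repeat (0.0335%), a glucocorticoid receptor palindrome (0.00914%), a cAMP response element (TGACGTCA, 1.55%) and a TATA box (TATAAA, 12.4%), none was in these 4 windows, while the window of the other Nudt7 start held 1 NRF1 match. GC content was 61.2% for Enpp1, 64% for Aasdhppt, 49.2% for Nudt7 and 44.4% for Ppcdc, beside a median of 52.4% over all windows. These are matches of letters only, and no match says only that the letters are not in the window.

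Enpp1 (ENSMUSG00000037370, chromosome 10, 24637914 to 24712159, minus strand, protein coding) encodes a surface enzyme that cuts extracellular nucleotides and releases pyrophosphate, and that can cut CoA outside the cell. At day 20 it measured 14.5, 12.8 and 12.1 CPM in WT females and 14.1, 15.2 and 12.7 CPM in WT males. The dKO females gave 6.64, 7.29 and 8.16 CPM and the dKO males 7.06, 6.72 and 6.37 CPM. Every dKO library lay below every WT library, with a gap from 8.16 to 12.1 CPM. Enpp1 and Nudt7 were the 2 of 9 genes with no overlap at day 20, and 20.1% of all tested genes had none. At day 10, 0 of 9 had none, beside 1.99% of all tested genes. The group means were 13.6 ± 1.2 CPM in WT and 7.04 ± 0.639 CPM in dKO (SD, n = 6 each), a log2 change of -0.95 ± 0.09 (SE, 95% confidence interval -1.13 to -0.77, adjusted p = 2.57e-08). In whole tissue, fewer cells of a type and less RNA per cell cannot be told apart.

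At day 10 Enpp1 was 10.5, 11.9 and 13.6 CPM in WT females and 11.7, 11.4 and 10.3 CPM in WT males. The dKO females gave 11.7, 11.4 and 10.0 CPM and the 2 dKO males 10.2 and 8.15 CPM. The genotypes overlapped, and dKO male replicate 2 was the lowest of all 11 libraries of that day. The log2 change of -0.21 ± 0.09 (95% confidence interval -0.40 to -0.02) was not called (adjusted p = 0.151). It was -0.30 without dKO male day 10 replicate 1, a fit that leaves only replicate 2 in that group. The change at day 20 was lower than that at day 10 by a test of the difference itself (log2 -0.74 ± 0.13, adjusted p = 0.000203). The genotypes also moved in opposite directions between the days, each called: WT rose by 0.22 on the log2 scale (SE 0.08, adjusted p = 0.0266) and dKO fell by 0.52 (SE 0.10, adjusted p = 7.49e-05).

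Markers of other cell types moved in the same libraries, and their counts stand beside the 19.5% of all tested genes called lower and 19.4% called higher at day 20. At day 20, 4 of 8 mural cell markers fell and 1 rose (summed level 251 to 293 CPM in WT, 173 to 203 CPM in dKO), 5 of 8 endothelial markers fell (287 to 300 against 227 to 270 CPM) and 7 of 8 markers of fibroblasts and meninges fell (214 to 309 against 141 to 189 CPM). Median log2 changes were -0.28 for mural, -0.33 for endothelial and -0.66 for fibroblast and meninges markers, beside 0.00 over all tested genes. Markers that fell further than these medians included Rgs5 of mural cells (log2 -1.29), Tek of endothelium (-1.03), and Lum (-2.20) and Col3a1 (-1.80) of fibroblasts. Of the choroid plexus markers, 4 of 8 fell (524 to 679 CPM in WT, 231 to 529 CPM in dKO), and of the microglial markers, 6 of 8 fell (161 to 192 against 101 to 151 CPM). All 6 erythroid markers fell (320 to 676 against 75.8 to 131 CPM). Among the others, 3 of 8 astrocyte markers fell and 1 rose (5061 to 5402 against 4495 to 5186 CPM), 2 of 8 oligodendrocyte markers fell (15172 to 19698 against 11875 to 15122 CPM), 1 of 6 precursor markers fell and 1 rose (478 to 567 against 325 to 496 CPM) and 2 of 10 neuronal markers fell. No marker of any of these lists was at 0 throughout a group. From day 10 to day 20 in WT, 8 of 8 oligodendrocyte markers rose (median log2 1.21). Of the markers of fibroblasts and meninges, 8 of 8 fell (-0.78), where 26.1% of all tested genes were called higher and 25.3% lower. At day 10, 4 of 8 oligodendrocyte markers were lower in dKO and 0 higher (median -0.59), beside 5.80% of all tested genes called. The part of these cell types in the changes of Enpp1, Nudt7, Aasdhppt, Ppcdc and the other members, with genotype or with age, was not tested.

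**Figure D3:**
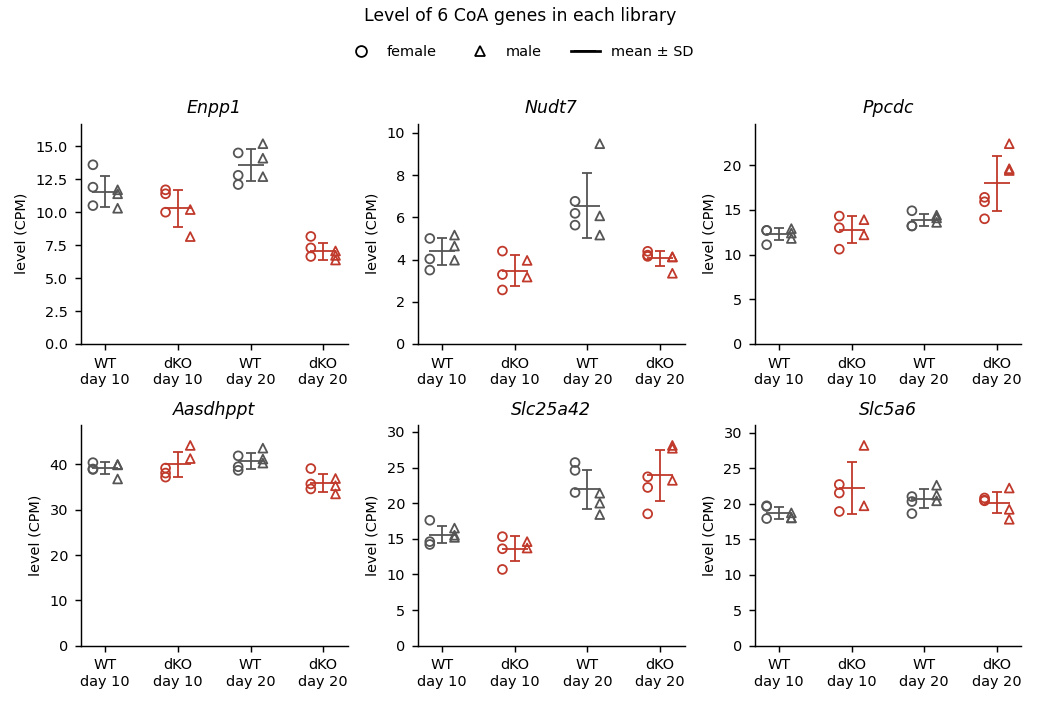
CPM of 6 of the genes (Enpp1, Nudt7, Ppcdc, Aasdhppt, Slc25a42, Slc5a6) in all 23 libraries by genotype and day, with circles for females, triangles for males and lines for the mean ± SD; each vertical axis starts at 0. The dKO libraries of Enpp1 at day 20 sit between 6.37 and 8.16 CPM, below the WT libraries at 12.1 to 15.2 CPM.

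Nudt7 (ENSMUSG00000031767, chromosome 8, 114133557 to 114154739, plus strand, protein coding) encodes a peroxisomal hydrolase that cuts CoA and its esters. It was low, with 30 to 245 counts per library. WT females at day 20 gave 6.19, 6.76 and 5.63 CPM and WT males 6.07, 9.49 and 5.16 CPM. In dKO it was 4.39, 4.15 and 4.21 CPM in females and 3.35, 4.13 and 4.12 CPM in males. The lowest WT library (5.16 CPM) thus lay above the highest dKO library (4.39 CPM). The means were 6.55 ± 1.54 and 4.06 ± 0.361 CPM (SD, n = 6 each), a log2 change of -0.67 ± 0.14 (SE, 95% confidence interval -0.96 to -0.38, adjusted p = 0.000657). At day 10 the means were 4.38 ± 0.652 CPM in WT (n = 6) and 3.48 ± 0.717 CPM in dKO (n = 5), with libraries that overlapped and a change that was not called (log2 -0.32 ± 0.17, adjusted p = 0.242). The difference between the days' changes was not called either (-0.35 ± 0.22, adjusted p = 0.243). Nudt7 rose with age in WT (log2 0.55 ± 0.14, adjusted p = 0.00166). In dKO its change between the days was 0.20 and not called (adjusted p = 0.329).

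Nudt19 (ENSMUSG00000034875, chromosome 7, 35547185 to 35556304, minus strand, protein coding) encodes another peroxisomal CoA hydrolase, known mainly from kidney. Its WT libraries at day 20 ran from 22.8 to 28.2 CPM (median 26.6) and its dKO libraries from 24.1 to 31.9 CPM (median 26.0). The day 20 change was 0.05 ± 0.08 on the log2 scale (95% confidence interval -0.11 to 0.20, adjusted p = 0.657), and that at day 10 was 0.17 ± 0.08 (adjusted p = 0.176). Nudt19 fell with age in both genotypes, by 0.30 in WT (adjusted p = 0.00174) and by 0.42 in dKO (adjusted p = 7.95e-05) on the log2 scale. An antisense gene, B230322F03Rik, covers 35.0% of its exon bases, and only counts of the strand of Nudt19 were used.

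Nudt8 (ENSMUSG00000110949, chromosome 19, 4000580 to 4002103, plus strand, protein coding) encodes the CoA hydrolase of mitochondria. It had 0 to 13 counts per library and 117 in all. Counts were 13, 2 and 5 in WT females and 8, 4 and 1 in WT males at day 10. At day 20 they were 3, 8 and 7 in WT females, 5, 7 and 8 in WT males, 6, 4 and 3 in dKO females and 6, 6 and 7 in dKO males. The dKO libraries at day 10 held 4, 0 and 6 counts in females and 0 and 4 in males. A count of 0 in these 2 libraries allows up to 0.256 CPM in dKO female replicate 2 and 0.167 CPM in dKO male replicate 1 (3 counts, counting error only). The means at day 20 were 0.264 ± 0.114 CPM in WT and 0.249 ± 0.0781 CPM in dKO (SD, n = 6 each), and the gene was not tested. A further limit is that Gm49405 lies on the same strand over 65.3% of the Nudt8 exon bases, and how reads shared by both genes were counted is not given in the sources used here.

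Aasdhppt (ENSMUSG00000025894, chromosome 9, 4294793 to 4309471, minus strand, protein coding) encodes the enzyme that moves phosphopantetheine from CoA onto carrier proteins. At day 20 the WT libraries were 39.5, 41.9 and 38.7 CPM in females and 41.2, 40.3 and 43.6 CPM in males. The dKO libraries were 39.1, 35.7 and 34.6 CPM in females and 33.5, 35.3 and 36.9 CPM in males. Of the 6 dKO libraries only female replicate 1 (39.1 CPM) reached the WT range, whose lowest value was 38.7 CPM. The change was small but precise, from 40.9 ± 1.77 to 35.8 ± 1.98 CPM (log2 -0.19 ± 0.05, 95% confidence interval -0.28 to -0.09, adjusted p = 0.00228). A test against a change of 1.2-fold did not call it (adjusted p = 1). At day 10 the change was 0.04 (adjusted p = 0.619), with means of 39.2 ± 1.31 CPM in WT and 40.0 ± 2.79 CPM in dKO. The changes at the 2 days differed (log2 -0.23 ± 0.07, adjusted p = 0.0123). This call was lost with no filter on low counts (adjusted p = 0.0632) and in a test against 1.2-fold (adjusted p = 0.740). It was also lost without dKO male day 10 replicate 2 (log2 -0.19), which at 44.2 CPM was the highest library of that day. That fit leaves only replicate 1 in the group.

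Ppcdc (ENSMUSG00000063849, chromosome 9, 57385095 to 57440124, minus strand, protein coding), the decarboxylase of CoA synthesis, was the single member that rose at day 20. WT females gave 13.2, 13.2 and 14.9 CPM and WT males 14.4, 14.1 and 13.6 CPM. The dKO females gave 16.4, 15.9 and 14 CPM and the dKO males 22.4, 19.6 and 19.4 CPM. All 3 dKO males and 2 of 3 dKO females lay above every WT library, and dKO female replicate 3 lay inside the WT range. The means were 13.9 ± 0.683 and 18 ± 3.04 CPM (SD, n = 6 each), a log2 change of 0.36 ± 0.07 (95% confidence interval 0.21 to 0.51, adjusted p = 0.00038), which a test against 1.2-fold did not call (adjusted p = 0.147). At day 10 it was 12.3 ± 0.702 CPM in WT and 12.8 ± 1.48 CPM in dKO (log2 0.07, adjusted p = 0.658). The changes at the 2 days differed by 0.29 ± 0.11 (adjusted p = 0.0448). That call was lost with no filter on low counts (adjusted p = 0.0810), with unstranded counts (adjusted p = 0.0735) and in a test against 1.2-fold (adjusted p = 0.465). It was also lost when any 1 of 15 of the 23 libraries was left out (0.25 to 0.34 over all 23). It held without dKO female day 10 replicate 3, dKO male day 10 replicate 1, dKO female day 20 replicate 3, dKO male day 20 replicate 2 or 3, WT female day 10 replicate 2, WT male day 10 replicate 2 or WT female day 20 replicate 3. Ppcdc rose between the days in dKO (0.47 ± 0.08, adjusted p = 2.59e-05), and its change in WT was 0.17 (adjusted p = 0.0545).

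The enzymes on either side of Ppcdc were not called for genotype. Ppcs (ENSMUSG00000028636, chromosome 4, 119418530 to 119422420, minus strand, protein coding), which joins cysteine, ran from 4.49 to 6.22 CPM in WT (median 5.14) and from 4.42 to 5.60 CPM in dKO (median 4.87) at day 20. Its change of -0.06 ± 0.10 on the log2 scale had a 95% confidence interval from -0.26 to 0.14 (adjusted p = 0.669). Coasy (ENSMUSG00000001755, chromosome 11, 101082565 to 101086619, plus strand, protein coding), the enzyme of both final steps, ran from 19.6 to 22.4 CPM in WT (median 20.8) and from 19.6 to 22.3 CPM in dKO (median 21.1). Its change of 0.02 ± 0.05 had the narrowest interval of the uncalled genes, from -0.09 to 0.13 (adjusted p = 0.794). At day 10 the changes were 0.08 for Ppcs (adjusted p = 0.704) and -0.03 for Coasy (adjusted p = 0.792). Coasy fell by 0.14 with age in WT on the log2 scale (adjusted p = 0.0221), and its change of -0.09 in dKO was not called (adjusted p = 0.146). Ppcs was called between the days in neither genotype, with changes of -0.08 in WT (adjusted p = 0.491) and -0.22 in dKO (adjusted p = 0.0818).

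Slc5a6 (ENSMUSG00000006641, chromosome 5, 31036036 to 31048924, minus strand, protein coding) encodes the sodium-dependent carrier that brings pantothenate, biotin and lipoate into cells. At day 10 it measured 19.7, 17.9 and 19.6 CPM in WT females and 18, 18.7 and 18 CPM in WT males, against 18.9, 22.7 and 21.5 CPM in dKO females and 19.7 and 28.2 CPM in dKO males. Of the 5 dKO libraries, 4 reached or passed the highest WT value of 19.7 CPM to the precision printed, and dKO male replicate 2 stood far above the rest at 28.2 CPM. The log2 change of 0.26 ± 0.08 (95% confidence interval 0.09 to 0.43) just missed the threshold (adjusted p = 0.0554). It passed with DESeq2 (adjusted p = 0.0353) and without dKO female day 10 replicate 1 (0.30, adjusted p = 0.0296). In edgeR it also passed with a filter at a mean of at least 1 CPM (adjusted p = 0.0456) and with all 24 libraries (adjusted p = 0.0469). The change was 0.37 without dKO male day 10 replicate 1, a fit that leaves only replicate 2 in that group. Leaving out 1 library moved it between 0.10 and 0.37, with 0.10 without dKO male day 10 replicate 2. At day 20 the WT range was 18.6 to 22.6 CPM and the dKO range 17.8 to 22.2 CPM (log2 -0.03 ± 0.07, adjusted p = 0.759). The days' changes differed by -0.29 ± 0.11 (adjusted p = 0.0481), a call that was lost with DESeq2 (adjusted p = 0.0553), limma-voom (0.0661) and RLE size factors (0.0555). In edgeR it was also lost with no filter on low counts (adjusted p = 0.0879) and in a test against 1.2-fold (adjusted p = 0.465). It held in 5 of 23 fits with 1 library left out. Those fits included the ones without dKO female day 10 replicate 1, dKO male day 10 replicate 1 or dKO male day 20 replicate 2. The others were without WT female day 20 replicate 2 or WT male day 20 replicate 1. Leaving out either dKO male of day 10 leaves 1 library in that group, and without replicate 2 the difference was -0.14. On the opposite strand Atraid overlaps 9.92% of the Slc5a6 exon bases.

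Slc25a42 (ENSMUSG00000002346, chromosome 8, 70184340 to 70212305, minus strand, protein coding) encodes the carrier that takes CoA into mitochondria. It had the greatest rise with age of the 9 genes in dKO, by 0.80 ± 0.10 on the log2 scale (adjusted p = 2.01e-07), and rose by 0.49 ± 0.09 in WT (adjusted p = 4.47e-05). At day 20 WT females gave 24.6, 25.7 and 21.5 CPM and dKO females 18.5, 22.2 and 23.7 CPM. In males the order was the opposite, with 21.4, 20.0 and 18.4 CPM in WT and 28.1, 27.7 and 23.2 CPM in dKO. The genotypes overlapped in females and not in males. At 3 libraries against 3 this is common: at day 20, 51.2% of all tested genes had no overlap in males and 36.6% in females, as did 5 of 9 and 3 of 9 members. Over both sexes the change was 0.12 ± 0.08 (95% confidence interval -0.06 to 0.29, adjusted p = 0.288). At day 10 it was -0.19 ± 0.10 (adjusted p = 0.228), and the difference between the days was 0.31 ± 0.13 (adjusted p = 0.0765). That difference was called without dKO female day 10 replicate 1 (0.37, adjusted p = 0.0299), without dKO female day 20 replicate 1 (0.36, adjusted p = 0.0381) and without dKO male day 20 replicate 3 (0.35, adjusted p = 0.0474).

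The sexes were then compared. At day 20, 5 of 9 genes were called in males, 2 higher and 3 lower in dKO, where 35.3% of all tested genes were called (17.8% higher and 17.5% lower). In females 1 of 9 was called, Enpp1, where 10.7% of all tested genes were. Enpp1 fell in both, by 0.85 in females (SE 0.12, adjusted p = 0.00011) and by 1.05 in males (SE 0.12, adjusted p = 1.07e-06) on the log2 scale. Ppcdc rose by 0.54 ± 0.10 in males (adjusted p = 0.000206), beside 0.18 ± 0.10 in females (adjusted p = 0.295). Slc25a42 rose by 0.40 ± 0.12 in males (adjusted p = 0.011), beside -0.16 ± 0.12 in females (adjusted p = 0.413). Nudt7 fell by 0.79 in males (adjusted p = 0.00339), and its change in females was -0.54 (adjusted p = 0.0841). Aasdhppt fell by 0.25 in males (adjusted p = 0.00502), and its change in females was -0.13 (adjusted p = 0.203).

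By a test of the difference itself, none of these changes was shown to differ between the sexes. The edgeR test of genotype by sex at day 20 called 0 of 9 members and 0% of all tested genes, while 2 members and 3282 genes had an unadjusted p under 0.05. The 2 were Slc25a42, whose change was 0.56 ± 0.17 higher in males than in females (95% confidence interval 0.22 to 0.91, unadjusted p = 0.00279, adjusted p = 0.123), and Ppcdc, at 0.37 ± 0.14 higher (unadjusted p = 0.0176, adjusted p = 0.229). At day 10, 0 of 9 members were called for genotype in females (0.591% of all tested genes called, 0 members and 3984 genes unadjusted). In males 0 of 9 were called (0.0139% of all tested genes called, 2 members and 4230 of the 21657 genes unadjusted). The genotype by sex test at day 10 called 0 members (0% of all genes, 0 members and 2603 genes unadjusted). Between WT males and WT females 0 of 9 were called, also unadjusted, beside 0.0693% of all tested genes (589 genes unadjusted). For these sex comparisons no other tool was run.

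**Figure D4:**
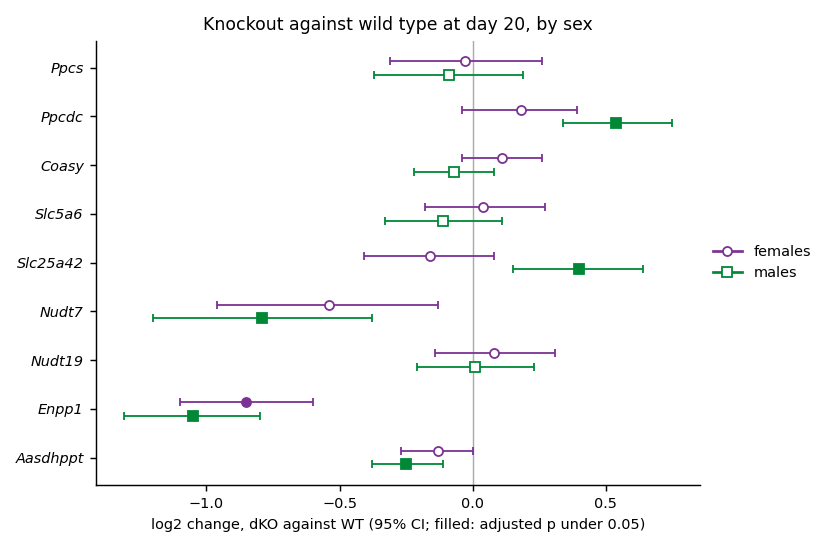
Log2 change in dKO against WT at day 20 for the 9 tested genes in females and males, with 95% confidence intervals; filled symbols have an adjusted p under 0.05. Slc25a42 lies at -0.16 in females and 0.40 in males, and Enpp1 at -0.85 and -1.05.

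Between the days, 5 of 9 genes were called in WT (3 higher and 2 lower at day 20, with 51.4% of all tested genes called, 26.1% higher and 25.3% lower) and 5 of 9 in dKO (2 higher and 3 lower, with 61.6% called, 30.3% higher and 31.2% lower). Both counts lay near the background. The test of genotype by day called 4 of 9 (1 higher and 3 lower), beside 28.7% of all tested genes (13.8% higher and 14.9% lower). Those 4 were Enpp1, Aasdhppt, Ppcdc and Slc5a6. The call of Enpp1 held under all 32 alternatives run for it, and that of Nudt7 for dKO against WT at day 20 under all 33, while the other 3 genotype by day calls were lost under some.

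**Figure D5:**
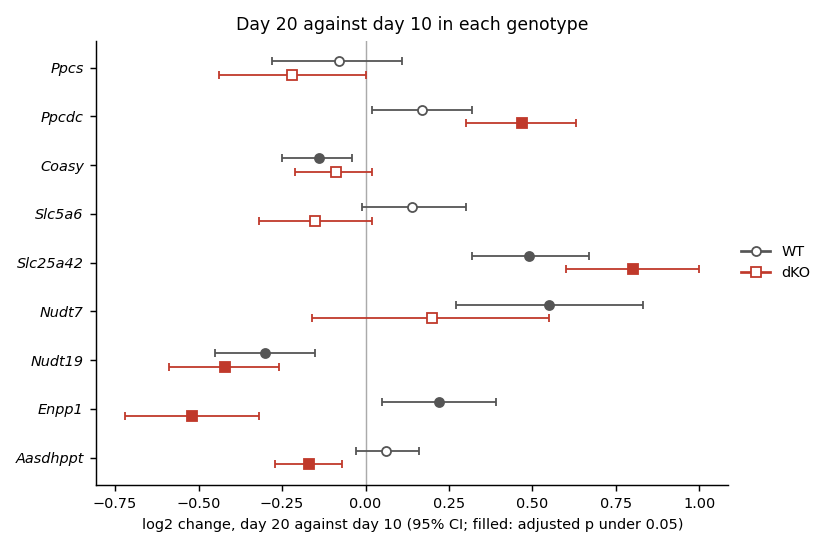
Log2 change from day 10 to day 20 for the 9 tested genes within WT and within dKO, with 95% confidence intervals; filled symbols have an adjusted p under 0.05. Enpp1 moves to 0.22 in WT and to -0.52 in dKO, and Slc25a42 rises in both (0.49 and 0.80).

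The other genes of the pathway and its neighbours were read as lists, each by its counts and its median beside those of all tested genes at day 20, of which 19.4% were called higher and 19.5% lower, with a median of 0.00. Of the 4 pantothenate kinases 3 fell, with Pank3 at -0.40 (adjusted p = 4.07e-07) beside the targeted Pank1 and Pank2, and Pank4 was not called (0.11, adjusted p = 0.206). Of the pantetheinases Vnn1 and Vnn3 and the mitochondrial carrier Slc25a16, linked to CoA, only Slc25a16 was tested. It rose from 24.9 ± 1.40 to 35.2 ± 4.72 CPM (log2 0.50 ± 0.07, adjusted p = 5.72e-06). Of 5 genes around the proteins that accept phosphopantetheine, 1 rose and 1 fell (median -0.14): Ndufab1, the mitochondrial acyl carrier protein, fell by 0.36 (adjusted p = 1.01e-05) and Aldh1l1, a folate enzyme, rose by 0.40 (adjusted p = 5.01e-05).

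Among 20 other Nudix hydrolases 4 rose and 5 fell (median -0.10), shares near those of all tested genes. Nudt5, which cuts ADP-ribose, fell from 22.5 ± 0.900 to 12.7 ± 2.81 CPM (log2 -0.86 ± 0.07, adjusted p = 3.42e-09). Nudt12, a peroxisomal hydrolase of NADH, fell by 0.53 (adjusted p = 0.000139), and Nudt16 rose by 0.36 (adjusted p = 0.00136). Of 5 tested relatives of Enpp1, 0 rose and 3 fell (median -0.77). Enpp2, the secreted enzyme autotaxin that is strong in choroid plexus and oligodendrocytes, went from 706 ± 66.5 to 312 ± 37.9 CPM (log2 -1.18 ± 0.18, adjusted p = 7.64e-05). Enpp6, a choline phosphodiesterase of new oligodendrocytes, fell by 0.77 (adjusted p = 2.3e-06), and Enpp3 fell by 0.92 (adjusted p = 0.00084). Of 11 genes that handle extracellular pyrophosphate and nucleotides 1 rose and 3 fell (median -0.23). Alpl, the phosphatase that breaks down pyrophosphate, went from 4.94 ± 0.841 to 2.66 ± 0.546 CPM (log2 -0.89 ± 0.15, adjusted p = 4.81e-05). Entpd1 fell by 0.45 (adjusted p = 0.00244), and the phosphate carrier Slc20a2 rose by 0.43 (adjusted p = 2.19e-05).

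Enzymes that handle or use biotin or lipoate, the other cargoes of the Slc5a6 carrier, rose in 7 of 16 cases and fell in 2 (median 0.10), where 19.4% of all tested genes were called higher and 19.5% lower. Both subunits of methylcrotonyl-CoA carboxylase rose, Mccc2 by 0.55 (adjusted p = 1.77e-07) and Mccc1 by 0.41 (adjusted p = 4.15e-06), while Dlst of the oxoglutarate dehydrogenase complex fell by 0.25 (adjusted p = 1.41e-05). Of 10 other vitamin transporters 3 rose and 3 fell (median -0.08), among them the folate carriers Slc46a1 (-0.63, adjusted p = 4.91e-05) and Slc19a1 (0.30, adjusted p = 0.000694). Mfsd2a, also in that list (0.64, adjusted p = 2.94e-05), is known as a carrier of lysophosphatidylcholine and not of a vitamin. Of 11 mitochondrial carriers of nucleotides and cofactors, in which Slc25a16 counts again, 1 rose and 3 fell (median 0.00), with Slc25a5 at -0.33 (adjusted p = 1.62e-05). Peroxisomal enzymes, which share their compartment with Nudt7 and Nudt19, rose in 4 and fell in 5 of 14 cases (median -0.05). The thiolase Acaa1a fell by 0.51 (adjusted p = 2.83e-08), catalase (Cat) fell by 0.48 (adjusted p = 3.96e-07) and the oxidase Acox3 rose by 0.34 (adjusted p = 6.12e-05). Of 16 peroxisome assembly genes 4 rose and 3 fell (median 0.04), with Pex6 at -0.40 (adjusted p = 0.000273), Pex26 at 0.27 (adjusted p = 0.000306) and Pex14 at 0.27 (adjusted p = 0.000566).

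For the 4 members called at day 20, the genes with the most similar profile were found from the means of the 8 groups, as the root mean square difference in centred log2 CPM over 13972 genes. Enpp1, whose group means span 1.05 on the log2 scale, was nearest to Mamdc4 (0.0593), Fgl2 (0.0769) and Tra2a (0.0809). Nudt7 (span 0.982) was nearest to Tjap1 (0.0668), Trp53inp2 (0.0743) and Plod1 (0.0785). Ppcdc (span 0.743) lay closest to Timm44 (0.0417), Nat10 (0.0505) and Cplane1 (0.0549), and Aasdhppt (span 0.278) to Pdzd8 (0.0310), Abhd13 (0.0316) and Macf1 (0.0319). No member was among the 3 nearest genes of another. With only 3 of 13972 genes kept for each, this cannot show whether members share a pattern.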

How the data were processed

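Stranded mRNA libraries were sequenced, and the authors deposited raw counts by gene and strand for each of 24 samples. The submitters' processing notes name STAR 2.5.2b, HTSeq and the build GRCm38.p5; the gene annotation is not given in the sources used here. The reverse-strand column was used, since forward-strand counts were 5.22 to 7.46% of it in 23 libraries. Libraries with at least 1 M gene counts were kept (23 of 24), a limit set with earlier results of these data known. GENCODE M21 on GRCm38 gave symbols, positions and exon lengths (union of all isoforms, so short isoforms are understated per length), for 50462 of 50686 identifiers. Ambiguous and other reads that name no gene were left out of totals.

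In R 4.3.3, edgeR 4.0.16 kept 21657 genes by filterByExpr, scaled libraries by TMM and fitted 1 mean per group by robust glmQLFit; contrasts were tested two-sided by glmQLFTest with Benjamini-Hochberg adjustment over all genes tested, and calls made at an adjusted p under 0.05. Both sexes had equal weight. Levels are CPM with TMM factors. Alternatives included limma 3.58.1 (voom), DESeq2 1.42.0, other filters, scaling, columns and designs, glmTreat at 1.2-fold and each library left out. The test was tried on simulated data with the same change at both days. It recovered 43.3% of 1.5-fold changes at day 10 and 50.7% at day 20, and 92.4% and 98.5% of 4-fold changes. Of 144 calls at day 10, 8 were false, and of 151 at day 20, 3 were. Only 67, 67 and 66 genes were changed by 1.5-, 2- and 4-fold, where 8412 genes were called in the data at day 20. These rates therefore do not give the share of changes found in the data. The simulation held no difference between the days, so it did not try the genotype by day test. Promoters came from RefSeq (GRCm38.p6), which listed 9 of the 10 members and not Coasy. The highest correlation between 2 libraries was 0.9930, and none was a copy of another.

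The members, the 11 pathway lists and 10 cell type lists were chosen with earlier results of these data known. All members, Pank1 to Pank4, the 3 called genes with the smallest day 20 p of each pathway list, 2 per cell type list and the 3 most similar genes of each called member could be named. Of these, 1 list gene is not reported here.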

Additional observations from a re-analysis of the deposited data

Results flagged for a closer look

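In groups of 4 to 10 libraries, 4 libraries stood apart from the others of their genotype and day by more than Dixon's 95% value, among 40 groups looked at, of which chance alone marks about 1 in 20. Coasy was 21.2 CPM in WT female day 10 replicate 2, where the 5 others of WT at day 10 lay between 23 and 24 CPM. Nudt7 was 9.49 CPM in WT male day 20 replicate 2, above 5.16 to 6.76 CPM in the others, and 3.35 CPM in dKO male day 20 replicate 1, below 4.12 to 4.39 CPM. Nudt8 was 0.403 CPM (13 counts) in WT female day 10 replicate 1, above 0.103 to 0.180 CPM in the others.

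The genotype change differed between the days for 4 members by the edgeR interaction test. For Enpp1 the difference was -0.74 on the log2 scale (from -0.21 at day 10 to -0.95 at day 20, adjusted p = 0.000203), and for Aasdhppt -0.23 (from 0.04 to -0.19, adjusted p = 0.0123). For Ppcdc it was 0.29 (from 0.07 to 0.36, adjusted p = 0.0448), and for Slc5a6 -0.29 (from 0.26 to -0.03, adjusted p = 0.0481).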

How the results depend on the processing

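The day 20 calls of Enpp1 (-0.98 to -0.91 on the log2 scale) and Nudt7 (-0.75 to -0.55) held under all 33 alternatives, which were 10 other settings and 23 libraries left out in turn. Those of Ppcdc and Aasdhppt were lost only with glmTreat at 1.2-fold. At day 20, glmTreat called 0 members higher, and 1600 genes higher and 1397 lower. At day 10, members called higher went from 0 to 1 with a mean of at least 1 CPM, with all 24 libraries and with DESeq2, and ranged from 0 to 1 over the libraries left out, as did those lower. Genes called higher at day 10 (843) became 343 with no filter, 6 with glmTreat and 4 when only that day was fitted, and ranged from 9 to 2456 over the libraries left out. Genes called lower (414) became 264, 3 and 2 under the same settings, 739 with limma-voom and 978 with DESeq2, and ranged from 7 to 2193. For genotype by day, members called higher were 0 with no filter, with unstranded counts and with glmTreat (0 to 2 over the libraries left out), and members called lower were 1 with no filter and with glmTreat (1 to 3). Over all genes glmTreat called 1132 higher and 1025 lower for genotype by day. Changes near 0 and not called turned sign in places. Over the libraries left out, Ppcs at day 20 ran from -0.11 to 0.02, Coasy at day 10 from -0.09 to 0.01, Slc5a6 at day 20 from -0.08 to 0.00 and Nudt19 at day 20 from -0.02 to 0.09, and Nudt19 was -0.01 with unstranded counts. glmTreat asks for a larger change and no filter adds genes to the adjustment; the cause of the other moves was not tested. Fitting 1 day has no genotype by day value.

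No paired analysis was possible because the labels number no replicates: the numbers used here only name the libraries of a group and tie none to another group. Depth limits Nudt8, at 0 to 13 counts, and dKO males at day 10 had 2 libraries.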
